A study of Ooceraea biroi with 96 samples.

Results

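In the brains of clonal raider ants, 23 of 13755 annotated features were at least 2-fold higher in genotype B than in genotype M in every rearing environment and at every age sampled. They were chosen by their measured levels. Each gene had a mean of at least 1 CPM, the count divided by the library's total and scaled to 1 megacount, in genotype B, and a ratio of (B + 0.1) to (M + 0.1) of at least 2, in all 4 combinations of environment and age. Genes of chromosome 13 were left out by the rule, and 8294 genes elsewhere met the minimum in genotype B. The levels of the 23 genes in B and M therefore chose them and are given as a description with no test. Age and social environment did not enter the choice as contrasts and were tested. Their interactions with genotype are changes of the B to M ratio, which the rule bounds from below in every combination. The interaction results are therefore not independent of the choice. The minimum in genotype B also limits how low a gene could lie in B at either age or in either environment. The age and environment results in B are thus not wholly free of the choice.

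The clonal raider ant, Ooceraea biroi, is a queenless species in which unmated workers produce daughters that are near copies of themselves. Ants of a clonal lineage therefore share almost all of their genome, and colonies of different lineages can be compared as distinct genotypes. Larvae of lineages B and M were fostered just after hatching into colonies of either lineage, and each library was made from the whole brain of 1 ant. At 1 day of age there were 7 ants of genotype B in social environment B (BinB), 9 of genotype B in environment M (BinM), 14 of genotype M in environment B (MinB) and 20 of genotype M in environment M (MinM). At 8 days there were 10 BinB, 10 BinM, 12 MinB and 14 MinM ants. Each genotype is a single clonal lineage, so effects of individual alleles within it cannot be told apart.

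The 96 libraries held 10.7 to 26.96 megacounts, with a median of 16.45 megacounts. In 10 libraries the median rank correlation with the rest of their group was more than 5 median absolute deviations below the group's median, and results that turn on them are given with and without them. They were replicate 9 of BinB and replicates 12 of MinB and 16 of MinM at day 1, and replicate 2 of BinM, replicates 8, 9 and 11 of MinB and replicates 6, 9 and 12 of MinM at day 8. The day 8 titles give no replicate number, so the numbers used here count the ants of each day 8 group in sample order. Replicates 9 of BinB at day 1 and 8 of MinB at day 8 stood at the extremes most often. The first was the lowest of its 7 libraries for 6 of the genes and the highest for 7, and the second was the highest of its 12 libraries for 11. The annotation used here pairs these gene identifiers with no product name, so the genes carry no known role below, and the labelled tissue was not checked against brain markers. In whole brains, fewer cells of a type and less RNA per cell cannot be told apart.

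Over the 23 genes, the median of the mean levels was 6.16 CPM in genotype B and 1.16 CPM in genotype M. The lowest of a gene's 4 ratios was at least 4 for 9 genes, between 3 and 4 for 4 genes and between 2 and 3 for 10 genes. In genotype M, 11 genes had a mean under 1 CPM and 2 had a mean under 0.1 CPM. No gene was at 0 counts in any of the 36 B libraries, whereas 11 genes were at 0 in at least 1 of the 60 M libraries. Whether low counts in M reflect less RNA, a missing or diverged sequence, or poorer matching of reads to the reference was not tested.

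The widest differences were in a pair of protein-coding genes of chromosome 14. LOC113563356 (chr14:8277676-8283690, minus strand, 12 exons) lay between 2.08 and 13.7 CPM in genotype B, with a median of 8.83 CPM. In genotype M it lay between 0 and 0.225 CPM, with a median of 0.0437 CPM, and 29 of the 60 libraries held no count. The 36 B libraries together held 5372 counts and the 60 M libraries 47, and the highest M ant lay below the lowest B ant. Its ratio ranged from 48 to 78.8 over the 4 combinations.

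LOC113563366 (chr14:320739-327381, minus strand, 8 exons) had a median of 2.99 CPM in genotype B, with a range from 0.208 to 5.7 CPM. In genotype M 44 of 60 libraries held no count and the highest reached 0.21 CPM. The B libraries held 1871 counts in all and the M libraries 21, and the ratio ranged from 18.9 to 32.5. The only B library within the range of M was the outlying replicate 9 of BinB at day 1, at 0.208 CPM, and the next lowest of its group was at 1.85 CPM.

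Chromosome 11 held the next genes by ratio. LOC105281691 (chr11:56737-58832, minus strand), annotated as a miscellaneous RNA, ranged from 1.18 to 14.4 CPM in genotype B around a median of 4.93 CPM. In genotype M it ranged from 0 to 2.38 CPM around a median of 0.261 CPM, so that the ranges overlapped while the ratio was 9.67 to 18.2. LOC105274458 (chr11:2270998-2272059, plus strand, protein-coding) ranged from 0.727 to 5.03 CPM in B and from 0 to 0.61 CPM in M, without overlap, and its ratio was 8.14 to 11.3.

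A further 5 genes had a lowest ratio of at least 4. The long noncoding RNA LOC105283424 (chr12:3115660-3122090, minus strand) ranged from 2.68 to 9.32 CPM in B and from 0.0812 to 2.03 CPM in M. The protein-coding LOC105283974 (chr1:15620282-15621805, minus strand) ranged from 3.34 to 9.38 CPM in B and from 0.081 to 1.83 CPM in M. For both of them every B ant lay above every M ant. LOC113562750 (chr10:5876825-5884459, minus strand, protein-coding) had a median of 14.9 CPM in B and 2.34 CPM in M, and its lowest B value, 1.66 CPM, was again that of replicate 9 of BinB at day 1. The other two genes, LOC105284632 and LOC105284630, are neighbours on chromosome 1 and are described as a pair below.

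**Figure D1:**
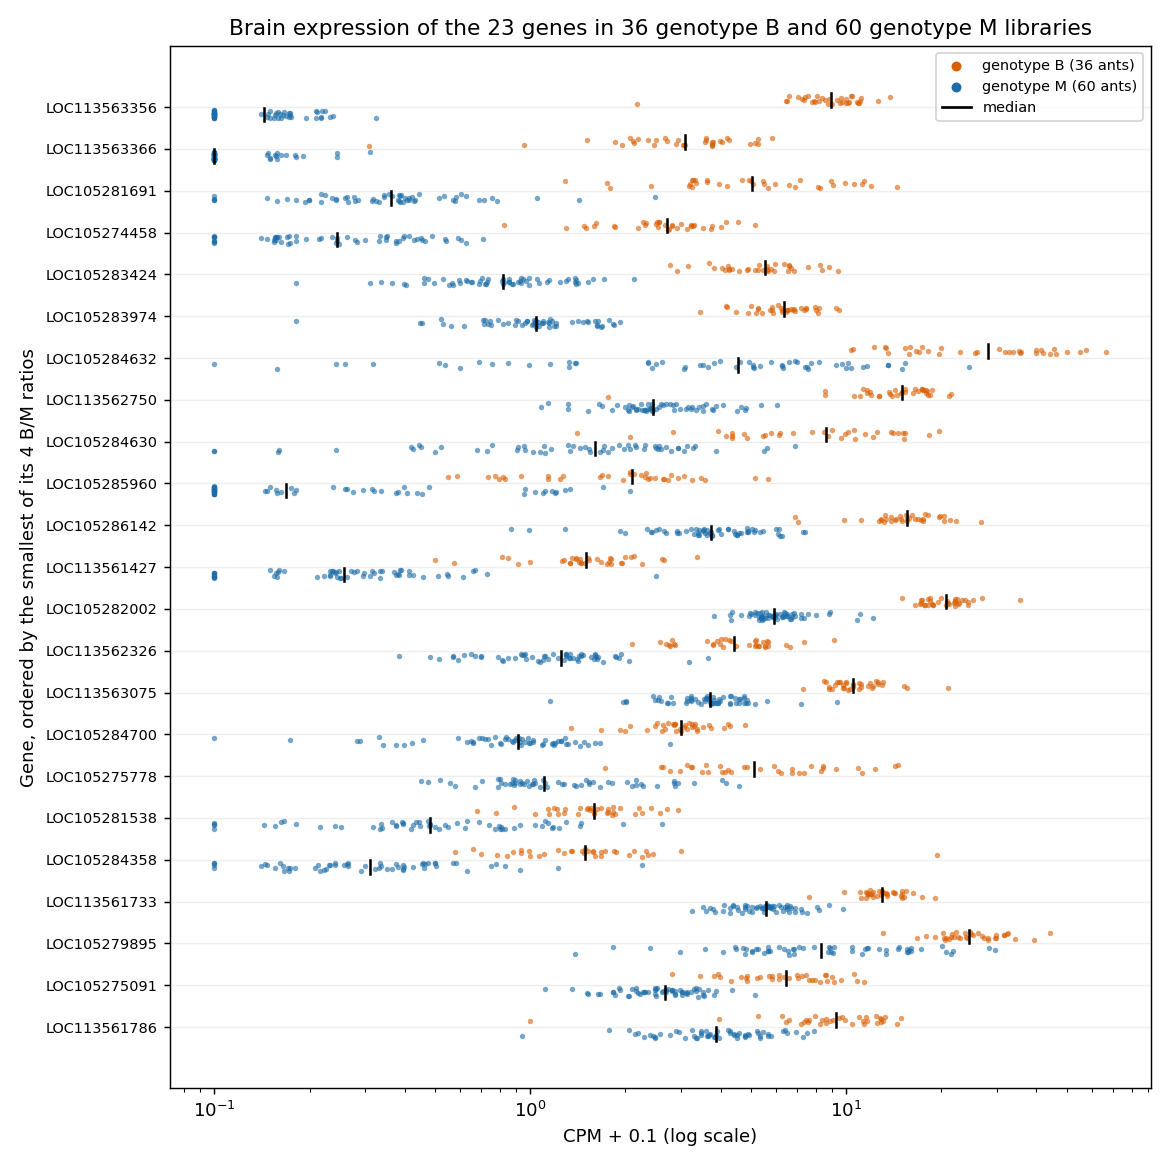
Levels of the genes in each of the 96 brains, on a log scale of CPM with an offset added, by genotype. LOC113563356 and LOC113563366 lay near 0 CPM in all 60 libraries of genotype M, while the genes of lowest ratio, such as LOC113561786, overlapped between the genotypes.

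In the middle of the range, LOC105286142 (chr12:343809-346454, minus strand, protein-coding) had a median of 15.4 CPM in B and 3.62 CPM in M. LOC105282002 (chr7:5278643-5279953, minus strand, protein-coding) ranged from 14.9 to 35.4 CPM in B and from 3.72 to 12 CPM in M. Its genotypes did not overlap although its ratio was only 3.09 to 3.55, and it had the highest level per exonic length in genotype B, 18.5 CPM per kb. LOC113561427 (chr12:3113284-3115573, minus strand, protein-coding, a single exon) had the lowest, 0.651 CPM per kb, with medians of 1.4 CPM in B and 0.157 CPM in M.

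LOC105285960 (chr3:6851598-6853605, plus strand, protein-coding) was uneven within genotype M. In B it ranged from 0.45 to 5.57 CPM around a median of 2 CPM. In M, 24 of 60 ants were at 0, 48 ants lay at or below 0.378 CPM, and the remaining 12 lay at 0.853 CPM or above, up to 1.97 CPM. No M ant lay between these levels, and the 12 ants came from all 4 groups of genotype M, with 2 of 14 and 2 of 12 in environment B and 4 of 20 and 4 of 14 in environment M at day 1 and day 8. LOC105279895 (chr7:9692069-9779198, minus strand, protein-coding) was also broad in M, from 1.28 to 29.4 CPM around 8.23 CPM, against 13 to 44 CPM around 24.3 CPM in B.

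Ratios varied little across environments and ages for some genes and widely for others. LOC105281538 (chr4:15176203-15176678, minus strand), a long noncoding RNA, kept a ratio of 2.43 to 2.79, and LOC113561733 (chr4:1727256-1729679, minus strand, protein-coding) kept one of 2.20 to 2.66. The latter ranged from 7.52 to 19 CPM around 12.8 CPM in B and from 3.14 to 9.66 CPM around 5.47 CPM in M. LOC105284358 (chr4:15304258-15306474, plus strand, protein-coding) had a ratio of 9.52 in environment B at day 1 and of 2.22 in environment B at day 8. The former rested on replicate 2 of BinB, which stood at 19.2 CPM while the next highest of the 7 ants was at 2.90 CPM. LOC105275778 (chr11:7458602-7467142, plus strand), a long noncoding RNA, had ratios of 6.48 and 2.49 in the same combinations.

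**Figure D2:**
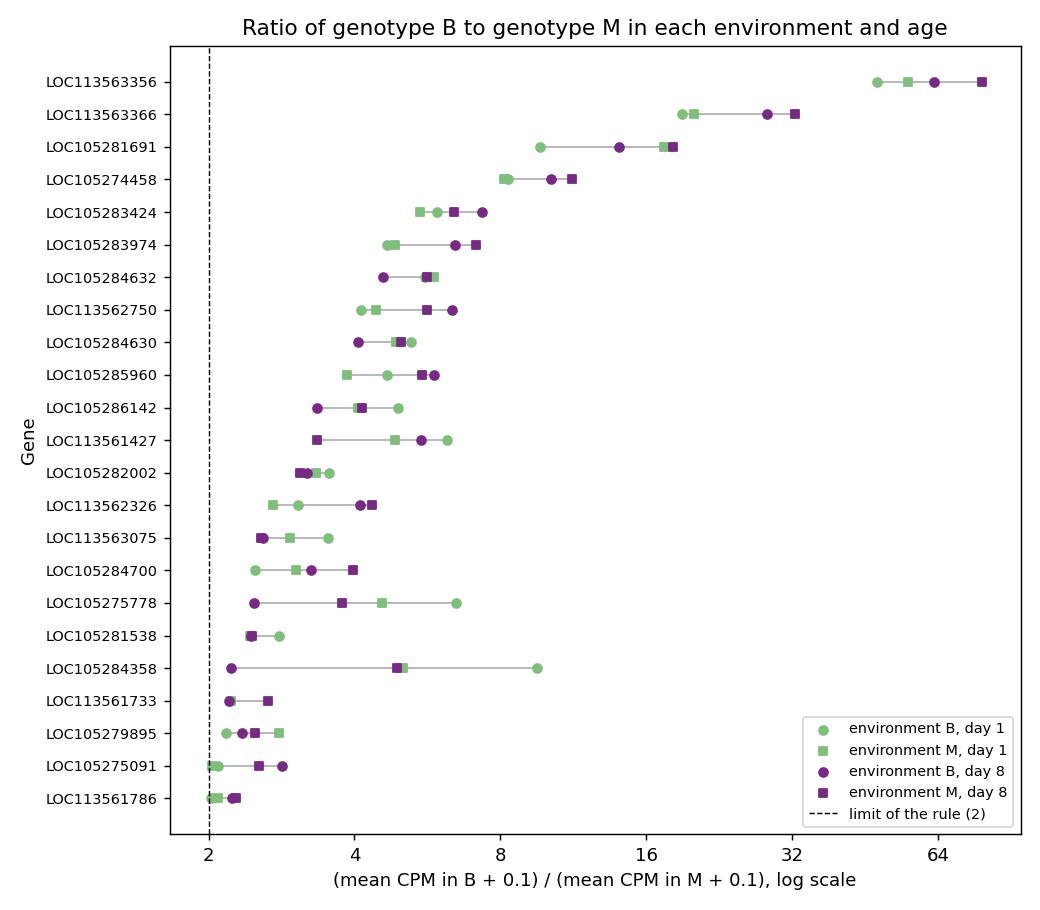
Ratio of the mean CPM of genotype B to that of genotype M, each with 0.1 added, for the 23 genes in each of the 4 combinations of environment and age, on a log axis. The ratios ran from 2.02 for LOC113561786 to 78.8 for LOC113563356, and those of LOC105284358 were the most uneven among the genes of low ratio.

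Just inside the limit of 2, LOC113561786 (chr4:3387446-3392577, minus strand) had a lowest ratio of 2.02, LOC105275091 (chr4:8187347-8210839, plus strand) of 2.03 and LOC105279895 of 2.17. Without the outlying libraries LOC105275091 did not meet the rule. Just outside the limit, LOC109611341 on chromosome 5 had 1.97, LOC105279341 on chromosome 1 had 1.94 and LOC105274461 on chromosome 11 had 1.81. The last lies 150 bases from the member LOC105274458. The remaining 3 genes, LOC113562326 (chr7:12778459-12781017, minus strand), LOC113563075 (chr12:19936-21265, minus strand) and LOC105284700 (chr9:9809106-9811722, plus strand), are protein-coding and had lowest ratios from 2.49 to 2.71.

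All B libraries lay above all M libraries for 5 of the 23 genes, and this held for 0.0696% of the 10056 genes tested, these included. The genes were LOC113563356, LOC105274458, LOC105283424, LOC105283974 and LOC105282002. Within environment B, 12 genes did not overlap at day 1 and 11 at day 8, against 0.418% and 0.328% of all genes. Within environment M, 14 did not overlap at day 1 and 17 at day 8, against 0.328% and 0.348%. These counts share their values with the rule. Without the 10 outlying libraries, 9 genes did not overlap over 34 B and 52 M libraries, against 0.159% of all genes.

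Gene class, span, exon number and position did not enter the rule. Of the 23, 19 were protein-coding (82.6%, against 93.6% of the genes tested), 3 were long noncoding RNAs (13% against 6.10%) and 1 was a miscellaneous RNA. Their median genomic span was 2617 bases and their median exon number 4, against 4800 bases and 6 exons. Their mean level over the 96 libraries had a median of 3.13 CPM, against 28.9 CPM. Level is a value the rule used, and the other features were not compared at matched level. No gene shared exonic bases with another gene on its own strand. On the opposite strand 4 shared between 60 and 155 exonic bases with another gene. Whether counting used strand is not stated in the sources used here, so reads of such partners could not be told apart.

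The genes lay on 9 of the 14 chromosomes, with 5 on chromosome 4, 4 on chromosome 12 and none on chromosomes 2, 5, 6 and 8. Within 500 kb of the first base or of the last annotated base of a chromosome lay 5 of the 23 genes (21.7%), against 8.41% of the genes tested. They were LOC113563075 at 19.9 kb, LOC105281691 at 56.7 kb, LOC113563366 at 321 kb, LOC105286142 at 344 kb and LOC113563356 at 410 kb. The limit of 500 kb was chosen with the positions known.

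Of 42 neighbouring tested genes, 8 were called lower in genotype M and 4 higher, at an edgeR adjusted p under 0.05. Over the 10056 genes tested, 644 (6.4%) were called lower and 680 (6.76%) higher. The share among neighbours was above that of all genes in both directions, and the difference was not tested. Around LOC105281691, near the start of chromosome 11, both neighbours were called lower in M. LOC105285038, 27453 bases away, had means of 1.05 CPM in B and 0.00869 CPM in M, and LOC105280910, 148341 bases away, had 1.41 and 0.0625 CPM. Around LOC113563075 both neighbours were also called lower in M, by smaller differences, with LOC105286102 at 68.9 CPM in B and 46.7 CPM in M and LOC105286103 at 99.3 and 78.4 CPM. The 42 genes exclude the 23 themselves. LOC105284632 also lay between lower levels in M on either side. On one side LOC113562061, 159653 bases away, was called lower in M at 1.24 CPM in B and 0.336 CPM in M. On the other side was LOC105284630, which the same rule chose. The rest of the 8 called lower in M were LOC105274461, LOC105288158 and LOC105286140, beside LOC105274458, LOC105275778 and LOC105286142.

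There were 2 pairs of direct neighbours among the 23. On chromosome 1, LOC105284630 (chr1:11684976-11687683, plus strand) and LOC105284632 (chr1:11688099-11691089, minus strand), both protein-coding, are convergent, with 415 bases between them. LOC105284632 ranged from 10.3 to 66.3 CPM around a median of 28.1 CPM in genotype B, and from 0 to 24.4 CPM around 4.45 CPM in M. LOC105284630 ranged from 1.31 to 19.6 CPM around 8.52 CPM in B, and from 0 to 6.8 CPM around 1.5 CPM in M. Both varied widely among ants of the same group, and they varied together.

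The deviations of the pair from their group means, on the scale of log2(CPM + 0.5), had a Pearson correlation of 0.898 over 36 B ants and 0.874 over 60 M ants. Without the outlying libraries it was 0.922 over 34 and 0.868 over 52 ants. This was the highest correlation of any pair of the 23 genes in each genotype, and the median over all pairs was -0.05 in B and 0.03 in M. The points share their libraries, so no p is given. The summed level of LOC105284632 stood at 2.7 to 3.79 times that of LOC105284630 over the 8 groups.

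The pair on chromosome 12, LOC113561427 and LOC105283424, lies on the same strand with 86 bases between the genes. Its correlation was 0.390 in B and 0.273 in M. Without the outlying libraries it was 0.392 in B and -0.02 in M. The tie seen in all M ants therefore rested on outlying libraries.

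**Figure D3:**
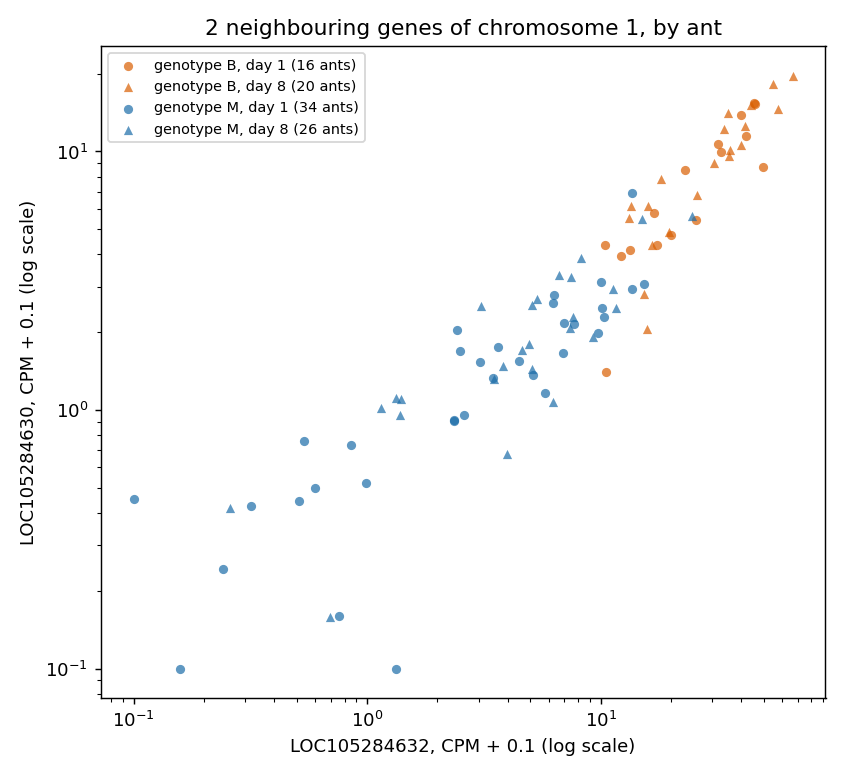
Levels of LOC105284630 and LOC105284632 in each brain, on a log scale of CPM with an offset added, with 1 point per ant, by genotype. Ants with a high level of one gene had a high level of the other in both genotypes, with correlations of deviations from group means of 0.898 in B and 0.874 in M.

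Among ants of a group, the spread of these genes was compared with that of other genes in each genotype. In genotype B, where all 23 had a mean of at least 1 CPM, the median coefficient of variation ran from 23.7% in BinM at day 8 to 37.3% in BinB at day 1. Over all genes with such a mean it ran from 11.2% to 19.6% in the same groups. Here a like mean level was the range of the 23 genes' means in the group. Genes within it had a median of 25.2% in BinB and 20.7% in BinM at day 1. At day 8 the values were 18.2% and 18.1%. In genotype M the median over the 23 genes was 61.2% in MinB and 54.0% in MinM at day 1, below the 66.5% and 65.9% of genes at a like level. At day 8 it was 61.1% in MinB, above 58.6%, and 56.5% in MinM, below 68.1%. These level ranges in M began between 0.0123 CPM, in MinB at day 1, and 0.0393 CPM, in MinB at day 8. Only 11 to 13 of the 23 genes had a mean of at least 1 CPM in a group of genotype M. Their median ran from 34.1% in MinM at day 8 to 44.2% in MinB at day 8. Over all genes with such a mean it was lower in each group, from 13.7% in MinB at day 1 to 18.1% in MinB at day 8. At the other end, LOC105282002 had a coefficient of variation of 5.10% in BinM at day 8, when its 10 ants lay between 19.4 and 22.7 CPM.

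With age, from day 1 to day 8, 7 of the 23 genes were called in genotype B, 5 rising and 2 falling. The share was 30.4%, against 62.9% of all genes tested (31.9% rising and 31% falling) and 58.8% of 3028 tested genes whose mean level lay within that of the 23. In genotype M also 7 genes were called, 5 rising and 2 falling, against 67.2% of all genes (35.1% rising and 32.1% falling) and 62.9% at a like level. Age differences are given as log2 of day 8 over day 1 with their standard errors, from edgeR's quasi-likelihood test after TMM scaling, whereas levels are in CPM of the library total. The median absolute difference of the 23 genes was 0.303 in B and 0.230 in M. It was 0.292 and 0.257 over all genes, and 0.433 and 0.369 at a like level. Their median standard error was 0.221 in B and 0.185 in M, against 0.161 and 0.125 at a like level, so the shares called also depend on precision. The genes at a like level were not held to the rule's floors in each combination. With library totals in place of TMM, the median age difference of all genes moved from 0.01 to 0.14 in B and from 0.02 to 0.14 in M. The all-gene split then went from 3211 rising and 3118 falling to 4393 and 2131 in B, and from 3527 and 3230 to 4946 and 2238 in M, and the 23 genes then gave 7 rising and 2 falling in B and 7 rising and none falling in M. The ages carry different forms of sample title, so age and any difference in handling cannot be told apart.

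Changes in both genotypes were called for 2 genes. LOC113561786 had medians in genotype B of 7.53 CPM in BinB and 7.49 CPM in BinM at day 1, and 11 and 11.9 CPM at day 8. In genotype M its medians were 3.22 CPM in MinB and 3.54 CPM in MinM at day 1, and 4.96 and 5.17 CPM at day 8. It rose by 0.59 ± 0.16 in B (adjusted p = 0.000834) and by 0.47 ± 0.13 in M (adjusted p = 0.000621).

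LOC105286142 fell in both. Its medians in B went from 19.8 to 12.8 CPM in BinB and from 17.4 to 14.9 CPM in BinM, with overlapping ranges. The log2 difference was -0.56 ± 0.16 in B (adjusted p = 0.0012) and -0.29 ± 0.13 in M (adjusted p = 0.0426). The call in M was lost with library totals, at -0.16, with limma-voom, without all outlying libraries, at -0.18, and without any one of replicate 12 of MinB at day 1 and, at day 8, replicate 8 or 11 of MinB or 12 of MinM.

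In genotype B the other called genes were LOC105275091, LOC113563366, LOC113562326, LOC113562750 and LOC105284358. LOC105275091 rose by 0.59 ± 0.13 (adjusted p = 7.7e-05), from medians of 4.74 CPM in BinB and 5.12 CPM in BinM to 8.37 and 7.24 CPM. LOC113563366 rose by 0.71 ± 0.24 (adjusted p = 0.00774), from medians of 2.01 and 2.09 CPM to 3.67 and 3.8 CPM. LOC113562326 rose by 0.48 ± 0.19 and LOC113562750 by 0.46 ± 0.16 (adjusted p = 0.0246 and 0.0092). None of these 4 was called in M, where their differences ran from -0.07 to 0.51, and the genotype by age interaction was called for none of them.

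LOC105284358 fell by 1.23 ± 0.32 on the log2 scale in B (adjusted p = 0.000633). In BinB it ranged from 1.48 to 19.2 CPM at day 1 and from 0.558 to 1.95 CPM at day 8. Without replicate 2 of BinB at day 1 the difference was -0.67 ± 0.31 and was not called (adjusted p = 0.0548).

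In genotype M the other called genes were LOC105275778, LOC113563075, LOC105282002, LOC113561427 and LOC105281691. LOC105275778 rose by 0.99 ± 0.19 (adjusted p = 2e-06), from medians of 0.861 CPM in MinB and 0.849 CPM in MinM to 2.12 and 1.68 CPM. LOC113563075 rose by 0.32 ± 0.10 (adjusted p = 0.00234), from 3.17 and 3.3 CPM to 4.55 and 4.29 CPM. LOC105282002 rose by 0.20 ± 0.07 (adjusted p = 0.00944), and without the outlying libraries its difference was 0.09 and was not called. LOC113561427 had 0.72 ± 0.32 (adjusted p = 0.0409). Without replicate 6 of MinM at day 8, which stood at 2.39 CPM where the group's median was 0.194 CPM, it had 0.29 and was not called, and the call was also lost without replicates 8 or 11 of MinB at day 8 or 16 of MinM at day 1. It was further lost without all outlying libraries, at 0.34, with no filter, at 0.70, and with limma-voom, at 0.49. LOC105281691 had -0.68 ± 0.30 (adjusted p = 0.0378), lost with library totals, with limma-voom and without replicate 11 of MinB or 6 of MinM at day 8.

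**Figure D4:**
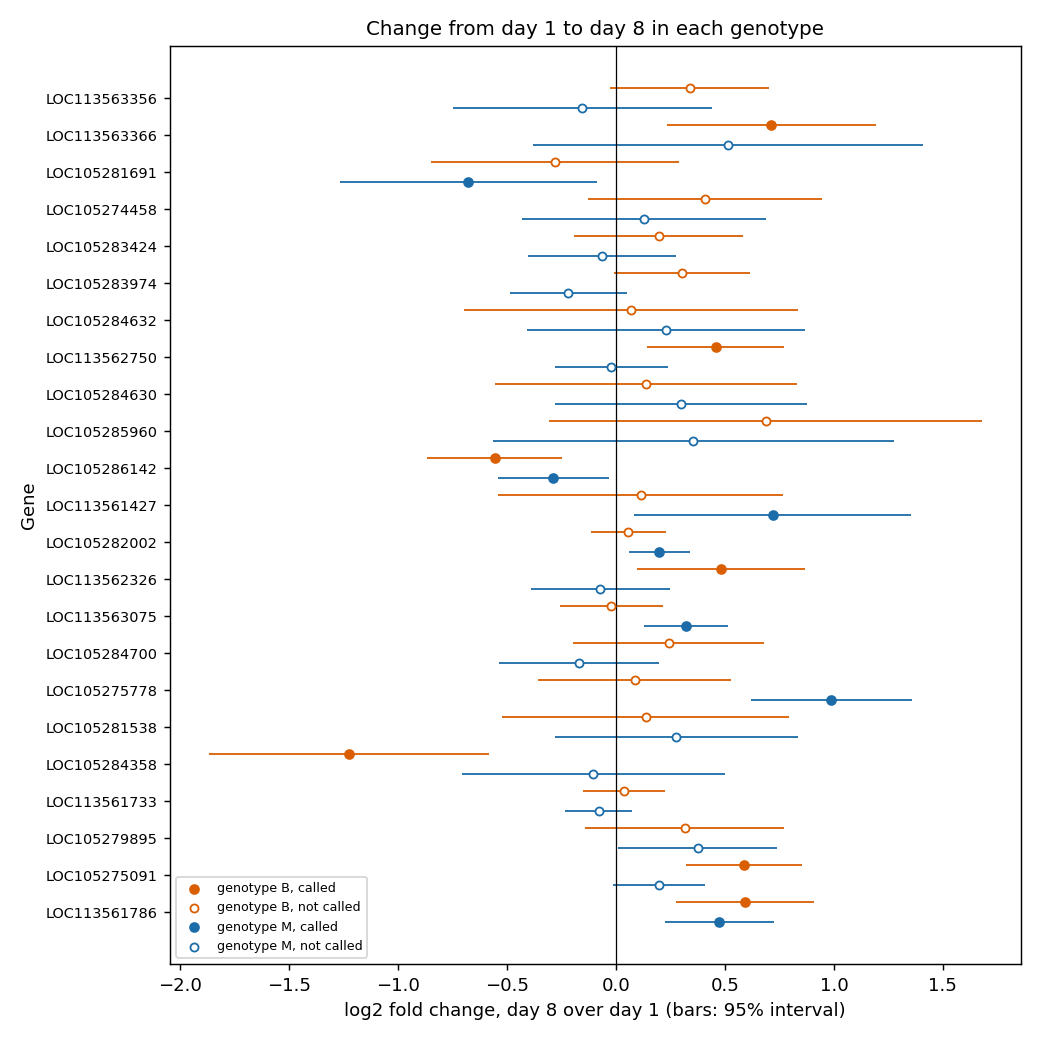
Log2 difference of day 8 over day 1 for the 23 genes in genotypes B and M, with 95% intervals from edgeR. Of the 23 genes, 7 passed the test in each genotype, LOC113561786 rose and LOC105286142 fell in both, and 15 had the same sign in both.

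The age change of 1 gene of 23 differed between the genotypes, against 6.39% of all genes tested (3.85% above 0 and 2.55% below) and 4.26% of those at a like level. This was LOC105275778, whose interaction, the age difference in M minus that in B, was 0.90 ± 0.29 (adjusted p = 0.0432). In genotype B its medians went from 7.01 to 5.51 CPM in BinB and from 3.4 to 4.71 CPM in BinM, a difference of 0.08 ± 0.22. Its highest day 1 B ant, at 14.5 CPM, was the outlying replicate 9 of BinB. Without that library the interaction was 0.77 and was not called (adjusted p = 0.122), and without all outlying libraries it was 0.47 (adjusted p = 0.415). The call was also lost with library totals, without a filter, with limma-voom, and without any one of replicates 2 of BinM, 8 or 9 of MinB or 6 of MinM at day 8. The rule set a floor for the ratio at both ages, which limits this interaction among the 23 genes, so its share is not an independent result about them.

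Social environment gave no call among the 23 genes in either genotype at either age, by edgeR, DESeq2 or limma-voom. Over all genes edgeR called 0.0102% in genotype B at day 1 (0.0331% of those at a like level) and 0% in each of the other 3 contrasts. At an unadjusted p under 0.05, edgeR gave 2 of the 23 genes in B at day 1, 1 in M at day 1, 0 in B at day 8 and 2 in M at day 8. Over all genes it gave 984, 234, 147 and 416 in the same order.

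The 4 differences largest in size, written as log2 of environment M over environment B, were in 3 genes. LOC105284358 had -1.63 ± 0.54 in B at day 1 (adjusted p = 0.449), and -0.50 ± 0.50 without replicate 2 of BinB. In M at day 8 it had -1.20 ± 0.37 (adjusted p = 0.968), with 0.0657 to 1.12 CPM in MinB and 0 to 0.4 CPM in MinM, and without the outlying libraries -0.75 ± 0.37. LOC105281691 had -1.10 ± 0.37 in M at day 1 (adjusted p = 0.999), with medians of 0.388 CPM in MinB and 0.257 CPM in MinM. LOC113563356 had -1.31 ± 0.44 in M at day 8 (adjusted p = 0.996), where both groups lay at or below 0.133 CPM.

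A missed threshold does not show that levels were equal, so the intervals are given. The 95% interval of the environment difference lay within 1.5-fold in either direction for 6 of the 23 genes in B and 9 in M at day 1, and for 9 in B and 8 in M at day 8. It did so in all 4 contrasts for 4 genes and in none for 11. The rule's floor for the ratio in both environments also limits the interaction of genotype and environment among the 23 genes. That interaction was called for none of the 23 genes, and for 0% of all genes, at either age by edgeR. At an unadjusted p under 0.05 it gave 0 of the 23 genes at day 1 and 2 at day 8, against 614 and 223 of all genes, and DESeq2 also called none of them. The lowest p was that of LOC105284358 at day 8, with -1.41 ± 0.50 (adjusted p = 1.00).

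**Figure D5:**
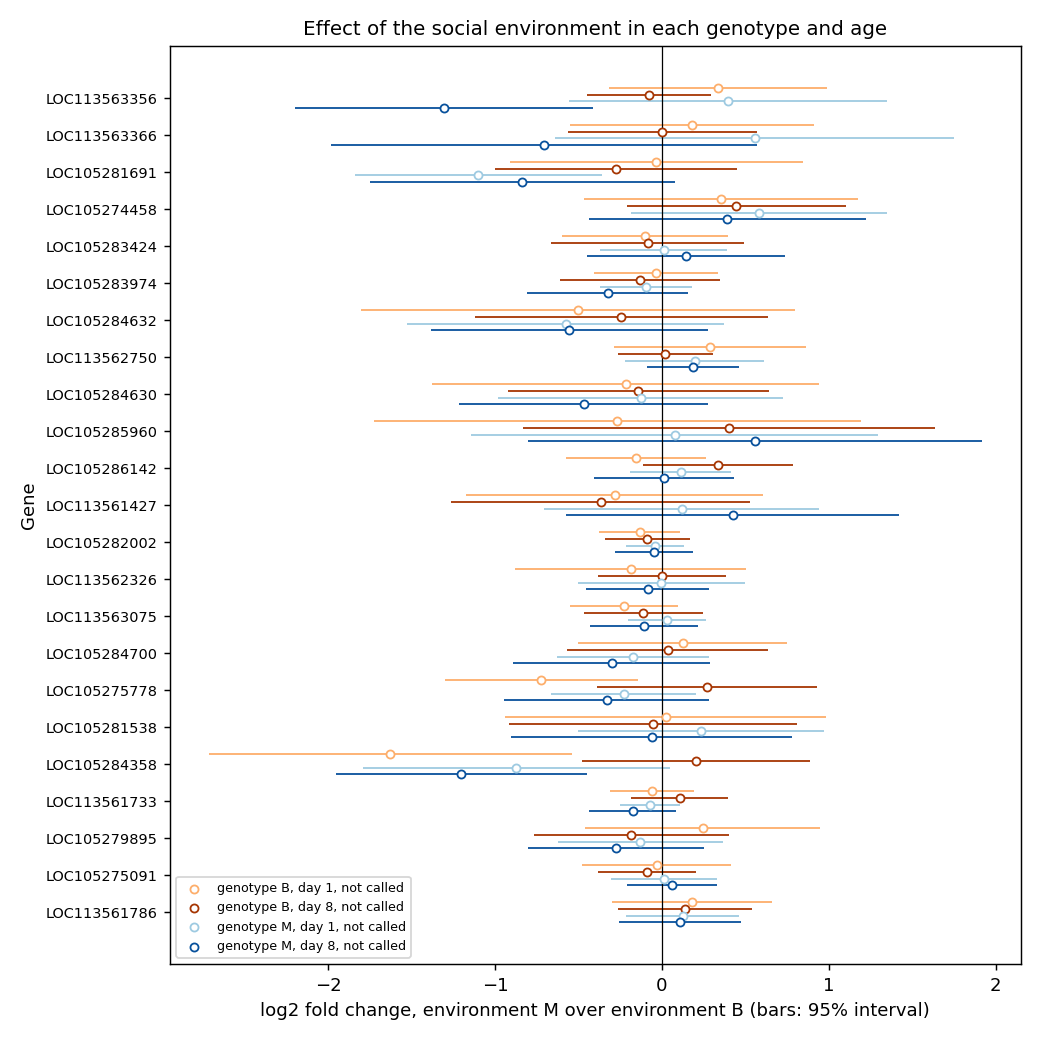
Log2 difference of social environment M over B for the 23 genes in each genotype at each age, with 95% intervals from edgeR. None passed the test, and the differences largest in size were those of LOC105284358, LOC105281691 and LOC113563356.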

How the data were processed

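The values used are raw counts of reads per gene, deposited by the authors as 1 table covering all 96 libraries. STAR 2.7.8a and featureCounts made them, per the submitters' processing notes. Not given in the sources used here are the genome build, the use of strand and the handling of reads that align more than once. For the 13600 features matched by symbol, RefSeq's Obir_v5.4 annotation has the spans of the table, and it gave chromosomes and gene classes. Coordinates are those of the deposited table.

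The 23 genes, lists and tests were chosen with earlier results of these data known. Levels are counts divided by the library's total, in CPM. Tests were quasi-likelihood F tests in edgeR (version 4.0.16, R 4.3.3) with TMM scaling, robust dispersion, the filterByExpr filter and Benjamini-Hochberg adjustment over all genes tested, with a threshold of 0.05. Age was fitted over 8 groups on 10056 genes, and environment in 4 groups per age on 9834 genes at day 1 and 9472 at day 8. All 23 genes passed each filter. The rule for named genes took the 6 members of highest mean in B, the 6 of largest lowest ratio, the 3 just inside and the 3 just outside the limit, up to 3 called changes per direction for age and its interaction, the gene of lowest p where an environment contrast had no call, and direct neighbours. A part of the rule on protein identity was void without sequences. The remaining members and neighbours were named after their values were seen, to account for all 23. Lists of gene functions and cell type markers were void, since no product names were at hand. Alternatives were library totals, DESeq2 size factors, no filter, a stricter filter, DESeq2 1.42.0, limma-voom (limma 3.58.1), the replicate block and leaving out libraries.

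Each library is 1 individual, per the labels. The sources used here do not say which ants shared a colony, and p-values treat ants as independent. Counts of libraries in a group differed beyond sampling noise (the lowest chi-square per gene was 9.466), so none was counted as a duplicate. The test was also tried on simulated data.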

Additional observations from a re-analysis of the deposited data

Results flagged for a closer look

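In groups of 4 to 10 ants, 11 values stood apart from the rest of their group by Dixon's gap test of CPM, among 92 combinations of gene and group. Only the groups of genotype B were of that size. Those of genotype M held 12 to 20 ants and were not tested in this way. For independent values of normal spread chance gives about 1 in 20. The combinations share libraries and the spread of CPM was not checked, so that rate is only a guide. Replicate 9 of BinB at day 1, an outlying library, gave 5 of them. LOC113563356 was lowest there at 2.08 CPM, with the next ant at 6.35 CPM, and LOC113563366 was lowest at 0.208 CPM, with the next at 1.85 CPM. LOC105282002 was highest there at 35.4 CPM against 18.7 CPM for the next ant, LOC113563075 at 21 against 11.1 CPM and LOC113562326 at 6.36 against 4.02 CPM.

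Replicate 2 of BinM at day 8, also an outlying library, was highest for LOC113562326 at 9.07 CPM, against 5.56 CPM for the next ant, and for LOC105286142 at 21.2 against 17.1 CPM. The remaining 4 values came from libraries that did not stand apart as a whole. Replicate 2 of BinB at day 1 was highest for LOC105284358 at 19.2 CPM, against 2.90 CPM for the next ant. Replicate 5 of BinM at day 8 was highest for LOC113563075 at 15.2 against 12 CPM. Replicate 7 of BinB at day 8 was highest for LOC113563356 at 13.7 against 11 CPM. Replicate 9 of BinB at day 8 was lowest for LOC105275091 at 3.73 CPM, with the next ant at 7.53 CPM.

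The age change of LOC105275778 differed between the genotypes by 0.90 on the log2 scale in edgeR's interaction test (adjusted p = 0.0432), and the part of the outlying libraries in it is given with the result.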

How the results depend on the processing

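Of 15 changes called for a named gene, 9 held under every alternative that gave a value and 6 were lost under at least 1, and none changed direction. The count of genes meeting the rule stayed at 23 with TMM-scaled CPM, and was 9 with a ratio of 4 and 12 with a minimum of 5 CPM. Without outlying libraries it was 22, as LOC105275091 no longer met the rule. With group medians it was 23, of which 22 were shared, with LOC109611341 in place of LOC105284358. For age in genotype B the count of 7 called genes was 3 with the stricter filter, which tested 10 of the 23, and 11 with limma-voom. For age in genotype M it was 4 with the stricter filter. The single interaction of genotype and age, above 0, became 0 calls with library totals, no filter or no outlying libraries, and 0 to 2 when 1 library was left out. The stricter filter also gave 0 calls, but LOC105275778 was not among the 10 genes it tested. DESeq2 gave 2 calls, 1 above 0 and 1 below. With limma-voom the 1 call was below 0 and was not LOC105275778, so the methods differed in the gene called. Over all genes that interaction gave 643 calls, 385 with limma-voom, 108 without outlying libraries and 166 to 787 with 1 library left out (166 without replicate 9 of BinB at day 1, 379 without replicate 8 of MinB and 417 without replicate 6 of MinM at day 8). Over all genes the environment in B at day 1 gave 1 call, 3 with DESeq2, 7 without outlying libraries, 0 with the stricter filter, limma-voom or the replicate block, and 0 to 3 with 1 library left out (0 without replicate 2 and 3 without replicate 9 of BinB). DESeq2 gave 1 call for the environment in M and 1 for the interaction of genotype and environment at day 1. The environment in M at day 8 gave 3 calls with no filter and 0 to 1 with 1 library left out (1 without replicate 8, 9 or 11 of MinB). The cause of these shifts was not tested. Leave-outs covered the 10 outlying libraries and replicate 2 of BinB at day 1, and were chosen after seeing the data.

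Whether the day 1 title numbers pair ants across groups could not be settled from these values. Deviations of 52 same-number pairs had a median correlation of 0.057 (range -0.511 to 0.657), against -0.0025 for pairs of other numbers. Of the 52 pairs, 20 exceeded 0.1, and 7 of 44 ants correlated best with their own number. The replicate block called 0 of the 23 genes. Over all genes, edgeR's unadjusted p for environment in B at day 1 was under 0.05 for 508 with the block and 984 without it. No paired analysis was possible at day 8 because the titles there give no replicate number, so the block was not run for age. Counts limit the precision for the 11 genes with a mean under 1 CPM in M. Of these, LOC113563366, LOC113563356 and LOC105285960 were at 0 counts in 44, 29 and 24 of the 60 M libraries. The others were at 0 less often, and LOC105283424 and LOC105283974 in no M library.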
